A study of Mus musculus with 6 samples.

Results

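RNA levels of the enzymes that build, reduce and salvage nucleotides, and of the folate enzymes that supply their one-carbon units, were compared between cultured mouse myeloid cells with and without added mitochondrial DNA. The 33 genes were chosen by name, and they were selected on knowledge of how genes differed between the same libraries. Their counts of changed genes and their p-values therefore describe the set and do not test it. All 33 matched a row of the count table, which has 55359 rows, and all 33 were among the 11190 genes with enough reads to be tested. They fall into 6 arms: 9 genes of purine synthesis, 5 of pyrimidine synthesis, 5 of the folate one-carbon cycle, 5 of deoxynucleotide production, 5 of salvage, and 4 that supply phosphoribosyl pyrophosphate (PRPP) or phosphorylate nucleotides.

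The cells were myeloid-derived suppressor cells (MDSCs), immature myeloid cells known for restraining T cells. They were grown from C57BL/6 bone marrow for 4 days with 40 ng/ml of GM-CSF and 40 ng/ml of IL-6, and a polymorphonuclear fraction was taken with an isolation kit. Of the 6 libraries, 3 came from cells given mitochondrial DNA (mtDNA), 250 ng/ml with a lipid reagent for 12 h, and 3 came from cells labelled blank. The labels do not say whether the blank cells received the lipid reagent, no other DNA served as a control, and nothing states that the libraries came from separate cultures or mice, so p-values rest on a spread among libraries that may be purely technical.

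Library totals ran from 4018360 to 4911103 counts, so that 1 read corresponded to 0.2 to 0.255 CPM, the TMM-scaled read count used throughout. The first principal component held 68.1% of the variance, with blank libraries at -29.6 to -19.1 and mtDNA libraries at 22 to 27.7. On a second principal component, which held 8.97% of the variance, mtDNA 1 lay apart from the other libraries (-15.9 against -6.89 to 9.27). The interferon-stimulated gene Isg15 stood at 9.19 to 16.9 CPM in blank and 210 to 276 CPM in mtDNA libraries. The levels of neutrophil markers differed widely. S100a8 stood at 1620 to 1880 CPM, and the blank means were 2540 CPM for Mmp8, 812 for Ngp and 431 for Mpo. Those of Cxcr2 and Retnlg were 43 and 3.44 CPM. Ly6g, the surface marker that defines the polymorphonuclear fraction, was at only 4.22 to 7.05 CPM. The receptor Csf1r, which marks monocytes and macrophages, was at 1410 to 1440 CPM in blank and 1540 to 1550 CPM in mtDNA libraries. The label of the fraction was thus not matched by Ly6g at the RNA level, while several other neutrophil markers were abundant. Lymphocyte markers summed to 19.1 to 26.3 CPM over all libraries, with Ncr1 at 0.

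Purine rings are assembled step by step on PRPP, and the folate cycle donates carbons to the ring. Pyrimidine rings are built before they are joined to PRPP. Ribonucleotide reductase then turns ribonucleotides into deoxynucleotides, the building blocks of DNA, and thymidylate synthase makes the thymine form with a folate carbon. Salvage enzymes recycle free bases and nucleosides instead. Dividing cells are known for high levels of the synthesis enzymes, and the transcription factor Myc is known to act on many of these genes through the E-box, CACGTG.

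Promoter windows from RefSeq on GRCm38.p6, from 250 bases before to 50 after each start site, were matched to 31 of the 33 genes and searched on both strands for 5 motifs. The E-box CACGTG occurred in windows of 6 of the 31 genes (19.4%), against 8.09% of all 27025 genes with a window, tested or not. The 6 lay in purine synthesis (37.5% of its genes with a window), deoxynucleotide production (40%) and PRPP supply with the kinases (25%). The pyrimidine, folate and salvage arms had none. In the lists of related genes described below, the share ran from 0 in pentose phosphate genes to 30% in regulators and 37.5% in transport genes. The NRF1 site, whose letters stand in capitals in the Ctps and Shmt2 stretches below, occurred in 2 of the 31 (6.45%), against 1.07% of all. The interferon response core, GAAA repeated after any 2 bases, occurred in 1 gene, Cmpk1 (3.23%, against 3.99% of all), and the amino acid response core TGATGNAA in 1, Prps1 (3.23%, against 4.51%). The E2F site TTTGGCGC was in none of the 31, against 0.585% of all. Neither Dck nor Mthfd2, the pair of genes that rose, held any of the 5 motifs in its window. A match is a string of letters and not a site shown to be bound, and the absence of a match concerns these letters in this window only.

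The stretches below surround the E-box and NRF1 matches, with the motif in capitals, because they show how near to the start sites the shared letters lie. The first 3 genes belong to purine synthesis and fell; Tyms, Dtymk and Nme1 did not pass the test; Ctps and Shmt2, which carry the NRF1 letters, fell. The E-box of Paics begins 203 bases before the start site (chr5:76951069-76951134, plus strand), that of Atic 7 bases before it (chr1:71557119-71557184, plus strand), and that of Impdh2 110 bases before it (chr9:108560296-108560361, plus strand). The distances were 61 bases for Tyms (chr5:30073651-30073716, minus strand) and 148 for Dtymk (chr1:93802047-93802112, minus strand). Nme1 has start sites with a window each, and its matches begin 18 (chr11:93968255-93968320, minus strand) and 29 bases (chr11:93968019-93968084, minus strand) before them. The NRF1 letters begin 65 bases before the start of Ctps (chr4:120570302-120570371, minus strand) and 19 before that of Shmt2 (chr10:127522424-127522493, minus strand).
Paics: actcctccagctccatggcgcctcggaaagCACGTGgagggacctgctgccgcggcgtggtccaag
Atic: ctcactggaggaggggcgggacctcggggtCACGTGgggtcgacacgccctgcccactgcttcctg
Impdh2: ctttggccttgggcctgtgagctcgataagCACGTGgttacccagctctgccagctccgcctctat
Tyms: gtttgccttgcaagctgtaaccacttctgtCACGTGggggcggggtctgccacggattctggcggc
Dtymk: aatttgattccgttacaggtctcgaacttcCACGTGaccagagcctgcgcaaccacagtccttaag
Nme1 window A: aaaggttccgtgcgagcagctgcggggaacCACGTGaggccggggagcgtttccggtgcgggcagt
Nme1 window B: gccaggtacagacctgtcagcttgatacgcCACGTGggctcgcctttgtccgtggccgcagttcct
Ctps: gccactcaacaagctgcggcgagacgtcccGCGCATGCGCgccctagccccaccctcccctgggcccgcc
Shmt2: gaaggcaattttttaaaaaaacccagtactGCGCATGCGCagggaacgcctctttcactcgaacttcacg

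Between mtDNA and blank cells, 13 of the 33 enzymes fell, 2 rose and 18 did not pass the test. A gene counts as changed at an adjusted p under 0.05 in edgeR's quasi-likelihood test, with Benjamini-Hochberg adjustment over the 11190 tested genes. Of all tested genes, 669 fell (5.98%) and 1327 rose (11.9%). The log2 differences of the 13 that fell ran from -0.77 for Shmt1 to -0.18 for Rrm1, and none reached a halving. The 2 that rose were Dck and Mthfd2. The median log2 difference of the 33 was -0.26 and that of all tested genes -0.01, and 30 of the 33 (90.9%) were negative, against 52.0% of all tested genes. In 21 of the 33 every mtDNA library lay below every blank library, as it did in 15.6% of all tested genes; in 2 every mtDNA library lay above, as in 17.9% of all. Those 21 were the 13 that fell and 8 that did not pass the test. In this bulk RNA, fewer cells of a type and less RNA per cell cannot be told apart.

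**Figure D1:**
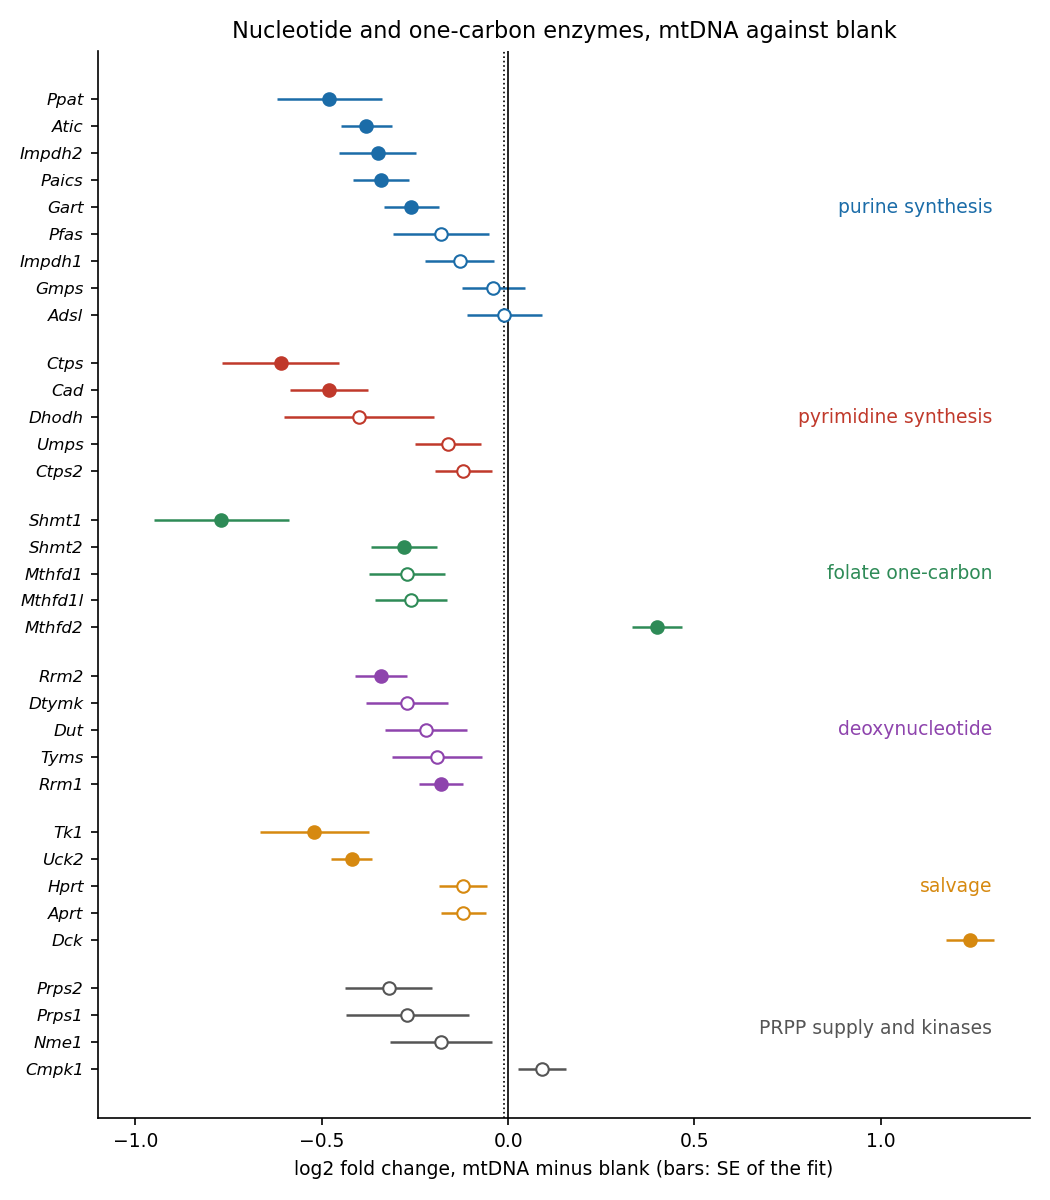
Log2 difference of each of the 33 enzymes, mtDNA minus blank, with the standard error of the fit as bars. Genes are grouped by arm, filled points passed the test, and the dotted line is the median of all tested genes (-0.01). Most points lie left of it, and Dck (1.24) and Mthfd2 (0.40) lie to the right.

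How firm the 13 calls were differed between genes. Paics, Atic, Cad, Shmt1, Rrm2 and Uck2 kept theirs under all 16 alternative analyses, as Dck and Mthfd2 did. The other 7, Ppat, Gart, Impdh2, Ctps, Shmt2, Rrm1 and Tk1, lost theirs under at least 1 alternative. With library totals alone as the scale, the median of all tested genes moved to -0.13 and 23 of the 33 enzymes fell; the share of all tested genes that fell was then 21.1% and the share that rose 7.69%. With upper-quartile scaling those shares were 13.4% and 8.67%, and 19 enzymes fell. With DESeq2, 7 fell and 2 rose, where 1.94% of all tested genes fell and 8.64% rose. With 1 library left out the number that fell was lowest without blank 2, at 7, and was 9 without mtDNA 1. The shares of all tested genes that fell were then 4.05% and 3.82%, against 5.98% in the main analysis.

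In purine synthesis, 5 of the 9 enzymes fell: Ppat, Gart, Paics, Atic and Impdh2. Ppat catalyses the committed step on PRPP, Gart and Paics carry out steps in the middle of the pathway, and Atic closes the ring to give inosine monophosphate (IMP). Atic (ENSMUSG00000026192) stood at 102, 100 and 107 CPM in blank libraries 1, 2 and 3, and at 76.7, 85.2 and 74.7 CPM in mtDNA libraries 1, 2 and 3. The groups did not overlap, and the difference was -0.38 on the log2 scale (SE 0.0693, edgeR adjusted p = 0.000295). Paics (ENSMUSG00000029247) stood at 116, 119 and 116 CPM in blank and 80.5, 92.9 and 103 CPM in mtDNA libraries. All of the mtDNA values lay below the blank values, with mtDNA 1 the lowest, and the log2 difference was -0.34 (SE 0.075, edgeR adjusted p = 0.00262).

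Ppat (ENSMUSG00000029246), whose gene lies head to head with Paics, was far lower per kilobase of transcript (4.80 against 47.1 CPM in blank libraries). It stood at 19.0, 20 and 18.3 CPM in blank and 12.5, 15.8 and 12.7 CPM in mtDNA libraries, with no overlap, a log2 difference of -0.48 (SE 0.141, edgeR adjusted p = 0.0202). Gart (ENSMUSG00000022962) stood at 89.2, 87.3 and 82.8 CPM against 64.9, 75.4 and 75.1 CPM, a log2 difference of -0.26 (SE 0.0737, edgeR adjusted p = 0.0153). Both genes were lower in each mtDNA library than in any blank library. Both calls ended when certain single libraries were left out. For Ppat the edgeR adjusted p was 0.0741 without blank 2 (log2 -0.45), 0.0699 without mtDNA 1 (log2 -0.43) and 0.0814 without mtDNA 3 (log2 -0.42). For Gart it was 0.0563 without blank 1 (log2 -0.24) and 0.075 without mtDNA 1 (log2 -0.2). DESeq2 gave 0.126 for Ppat and 0.0814 for Gart.

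At the branch from IMP to guanine nucleotides, the isozymes Impdh1 and Impdh2 oxidise IMP and Gmps aminates the product. Impdh2 (ENSMUSG00000062867) stood at 52.6, 60.3 and 50 CPM in blank and 35.1, 45.0 and 46.8 CPM in mtDNA libraries, a log2 difference of -0.35 (SE 0.103, edgeR adjusted p = 0.0197). The groups were apart, yet the adjusted p was 0.123 without blank 2, 0.105 without mtDNA 1 and 0.0692 with DESeq2. Of the 75-base windows of its transcript, 69.3% also occur in the pseudogene Impdh2-ps, so its count is uncertain where such reads were dropped. Impdh1 was at 46.9 ± 4.10 (SD, n = 3) and 42.9 ± 2.39 CPM in blank and mtDNA libraries, with overlapping groups and a log2 difference of -0.13. Gmps had a log2 difference of -0.04, Adsl, which acts before Atic and again on the way to AMP, of -0.01, and Pfas, an early amidotransferase of the ring, of -0.18. These 4 genes did not pass the test (edgeR adjusted p from 0.37 to 0.946), and their groups overlapped.

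In pyrimidine synthesis, 2 of the 5 enzymes fell, Cad and Ctps. Cad, a large protein that joins the opening activities of the pathway, stood at 47.4, 57.1 and 48.5 CPM in blank and 32.6, 41.8 and 35.4 CPM in mtDNA libraries (ENSMUSG00000013629). Every mtDNA library lay below every blank library, and the log2 difference was -0.48 (SE 0.104, edgeR adjusted p = 0.00202). Ctps, which converts UTP to CTP and is also called Ctps1, stood at 16, 19.0 and 15.9 CPM against 9.93, 10.2 and 13.1 CPM (ENSMUSG00000028633). The groups were apart and the log2 difference was -0.61 (SE 0.157, edgeR adjusted p = 0.00837), but the adjusted p was 0.0568 without blank 2 and 0.0568 with DESeq2.

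Dhodh, the mitochondrial enzyme that makes orotate, had the lowest mean level per kilobase in the arm. It stood at 10.8, 11.8 and 7.38 CPM in blank and 8.41, 7.05 and 7.59 CPM in mtDNA libraries, with blank 3 inside the mtDNA range. Its log2 difference of -0.40 (SE 0.201) did not pass the test (edgeR adjusted p = 0.196). Umps, which turns orotate into UMP, stood at 42.9 to 45.0 CPM in blank and 37.4 to 41.2 CPM in mtDNA libraries, apart but not called (log2 -0.16, edgeR adjusted p = 0.229). Ctps2, the second CTP synthase, had overlapping groups (log2 -0.12, edgeR adjusted p = 0.303).

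In the folate one-carbon arm, Shmt1 and Shmt2 fell while Mthfd2 rose. Shmt1 in the cytosol and Shmt2 in mitochondria take a carbon from serine and pass it to tetrahydrofolate. Shmt1 (ENSMUSG00000020534) stood at 18.3, 15.0 and 18.1 CPM in blank and 6.62, 10.2 and 12.4 CPM in mtDNA libraries. The groups did not overlap, the mtDNA libraries differed among themselves, and the log2 difference of -0.77 (SE 0.181, edgeR adjusted p = 0.00396) was the most negative of the 33 enzymes. Shmt2 (ENSMUSG00000025403) stood at 51.9, 49.3 and 44.7 CPM against 40.2, 41.2 and 39.2 CPM, a log2 difference of -0.28 (SE 0.0891, edgeR adjusted p = 0.0356). The call of Shmt2 ended when any library but blank 3 was left out (adjusted p from 0.0646 without mtDNA 2 to 0.134 without blank 1), and it was 0.189 with DESeq2.

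Mthfd2, the mitochondrial dehydrogenase and cyclohydrolase of the cycle, moved the other way. It stood at 84.9, 83.7 and 92.5 CPM in blank and 111, 120 and 114 CPM in mtDNA libraries (ENSMUSG00000005667). Each mtDNA library lay above each blank library, and the log2 difference was 0.40 (SE 0.0662, edgeR adjusted p = 0.000106). Mthfd1, the cytosolic enzyme, and Mthfd1l, the mitochondrial enzyme that releases formate, had log2 differences of -0.27 (edgeR adjusted p = 0.0767) and -0.26 (edgeR adjusted p = 0.0723). Both had every mtDNA library below every blank library without passing the test. Summed over the 5 genes, the arm stood at 227 ± 5.37 CPM (SD, n = 3) without and 227 ± 10.5 CPM with mtDNA, so that the 1 gene that rose balanced the others in the sum.

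**Figure D2:**
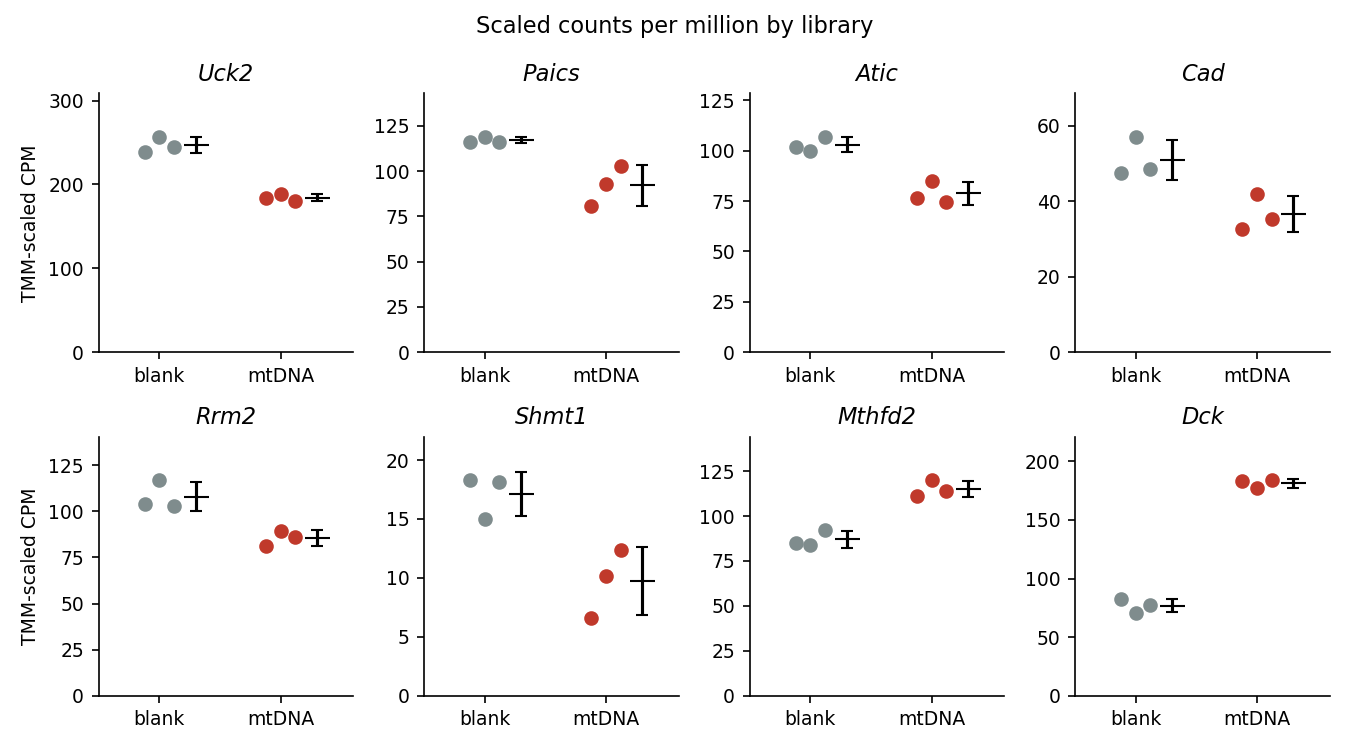
TMM-scaled CPM of 8 enzymes by library, with the mean and SD of each group beside the points (linear axes from 0). These are the genes whose calls held under all 16 alternatives, and in each of them the 3 blank and 3 mtDNA points do not overlap.

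In deoxynucleotide production, both subunits of ribonucleotide reductase fell. Rrm2, the small subunit whose level is known to follow S phase, stood at 104, 117 and 103 CPM in blank and 81.3, 89.5 and 85.9 CPM in mtDNA libraries (ENSMUSG00000020649). The groups were apart, with a log2 difference of -0.34 (SE 0.0697, edgeR adjusted p = 0.00128). Rrm1 (ENSMUSG00000030978), the large subunit, stood at 137, 131 and 130 CPM against 120, 116 and 116 CPM, a log2 difference of -0.18 (SE 0.0591, edgeR adjusted p = 0.0385). The groups were apart, but the call of Rrm1 held only without mtDNA 1 among the 6 analyses that left out a library (adjusted p otherwise from 0.0689 without blank 2 to 0.125 without blank 1), and DESeq2 gave 0.182.

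The thymidylate branch did not pass the test. Tyms, which methylates dUMP, stood at 25.3 to 30.4 CPM in blank and 21.1 to 27.8 CPM in mtDNA libraries (log2 -0.19, edgeR adjusted p = 0.31). Dut, which makes dUMP from dUTP, stood at 27.9 to 30.9 CPM and 23.4 to 26.9 CPM (log2 -0.22, edgeR adjusted p = 0.187), and Dtymk, the kinase for dTMP, at 30.7 to 35.9 CPM and 25.1 to 31.2 CPM (log2 -0.27, edgeR adjusted p = 0.102). Of these, Dut alone had groups that did not overlap.

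In salvage, the 3 nucleoside kinases moved apart: Uck2 and Tk1 fell and Dck rose. Uck2, which phosphorylates uridine and cytidine, stood at 239, 257 and 245 CPM in blank and 184, 189 and 180 CPM in mtDNA libraries (ENSMUSG00000026558). The groups were well apart, with a log2 difference of -0.42 (SE 0.0546, edgeR adjusted p = 4.58e-06), the smallest p among the enzymes that fell. Tk1, the cytosolic thymidine kinase of dividing cells, stood at 28.9, 31.9 and 27.4 CPM against 19.4, 26.5 and 15.6 CPM (ENSMUSG00000025574). Its groups did not overlap, although mtDNA 2 came close to blank 3, and the log2 difference of -0.52 (SE 0.146, edgeR adjusted p = 0.0145) had an adjusted p of 0.0669 without blank 2 and 0.102 without mtDNA 3.

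Dck, which phosphorylates deoxycytidine and purine deoxynucleosides, showed the largest change among the 33. It stood at 82.4, 70.9 and 77.3 CPM in blank and 183, 177 and 184 CPM in mtDNA libraries (ENSMUSG00000029366). The lowest mtDNA library was above every blank library, a 2.36-fold difference, or 1.24 on the log2 scale (SE 0.065, edgeR adjusted p = 1.4e-12). Under the 16 alternatives its log2 difference ran from 1.12 to 1.29. No 75-base window of its transcript occurs in another annotated gene. The base salvage enzymes Hprt and Aprt, which return hypoxanthine, guanine and adenine to nucleotides, each had a log2 difference of -0.12 and did not pass the test (edgeR adjusted p = 0.247 and 0.173). Hprt stood at 94.4 to 101 CPM in blank and 89.4 to 93.3 CPM in mtDNA libraries, while Aprt stood at 157 to 178 and 155 to 157 CPM.

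None of the 4 genes of PRPP supply and nucleotide kinases passed the test. Prps1 and Prps2 make PRPP from ribose 5-phosphate. Prps2 stood at 25.1 to 29.8 CPM in blank and 20.1 to 22.8 CPM in mtDNA libraries, apart, with a log2 difference of -0.32 (edgeR adjusted p = 0.0615), the smallest adjusted p among the 18 enzymes not called; it was called lower with upper-quartile scaling, library totals alone and GC correction. Prps1 stood at 11.4 to 15.3 and 10.3 to 11 CPM (log2 -0.27, edgeR adjusted p = 0.295). Nme1, a nucleoside diphosphate kinase, had overlapping groups (log2 -0.18, edgeR adjusted p = 0.426), and 11.1% of its 75-base windows occur in the read-through gene Gm20390. Cmpk1, the cytosolic UMP and CMP kinase, had a log2 difference of 0.09 (edgeR adjusted p = 0.399), which became -0.03 with library totals alone as the scale.

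The arms can be set side by side as summed CPM, which weigh abundant genes most and are given without a test. Purine synthesis stood at 540 ± 13.1 CPM (SD, n = 3) without and 451 ± 28.0 CPM with mtDNA, a change of -16.6%. Pyrimidine synthesis stood at 199 ± 10.1 and 166 ± 6.08 CPM (-16.8%), and deoxynucleotide production at 332 ± 9.11 and 281 ± 9.96 CPM (-15.4%). In these 3 arms every mtDNA library lay below every blank library. Salvage stood at 622 ± 17.5 and 633 ± 7.82 CPM (1.89%) and PRPP supply with the kinases at 169 ± 8.16 and 165 ± 8.17 CPM (-2.05%), with overlapping libraries in both, as in the folate arm. Within the salvage sum, Dck rose from 76.9 to 181 CPM. The other 4 salvage genes each had every mtDNA library below every blank library, as 15.6% of all tested genes did. The median log2 difference was -0.26 in purine synthesis, -0.40 in pyrimidine synthesis, -0.27 in the folate arm, -0.22 in deoxynucleotide production, -0.12 in salvage and -0.22 in PRPP supply with the kinases.

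**Figure D3:**
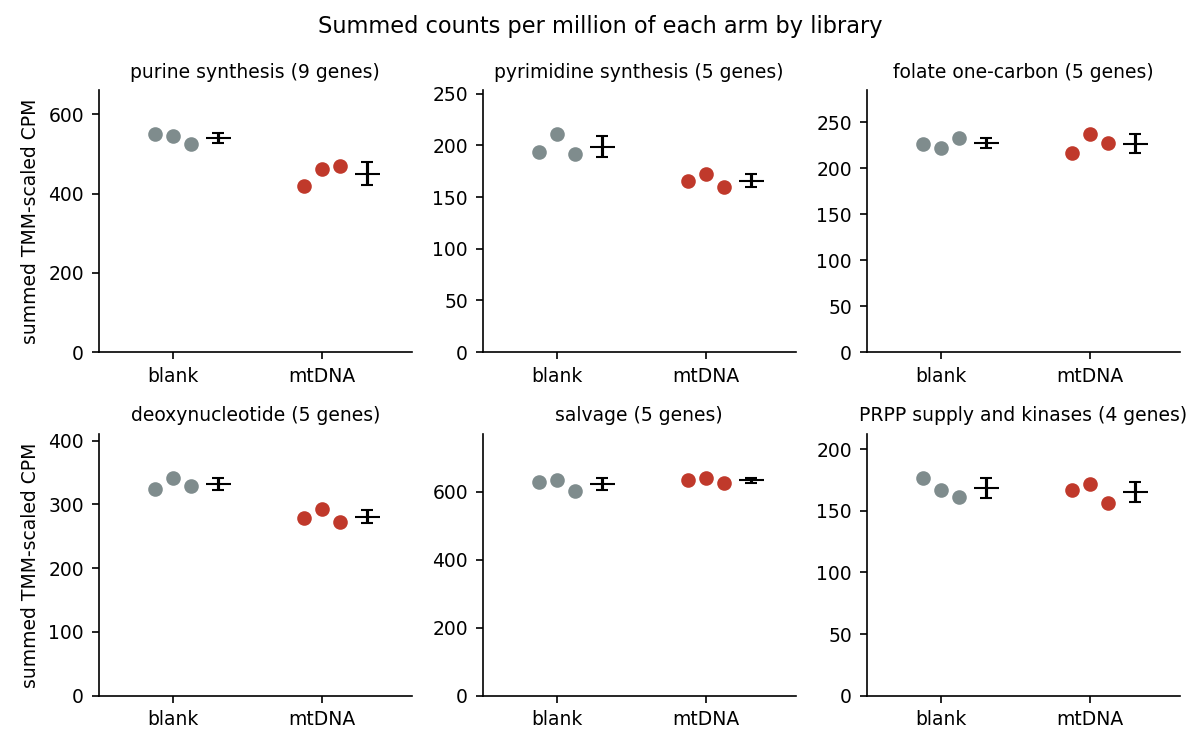
Summed TMM-scaled CPM of each arm by library, with the mean and SD of each group (linear axes from 0). Blank and mtDNA points are apart for purine synthesis (526 to 550 against 418 to 470 CPM), pyrimidine synthesis and deoxynucleotide production, and overlap for the other 3 arms.

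Levels differed far more between the enzymes than between the conditions. On a scale of CPM per kilobase of the longest coding transcript, the blank libraries gave 200 ± 12.7 for Aprt and 76.6 ± 2.89 for Hprt (SD, n = 3), the highest of the 33. Uck2 (52.2 ± 1.88), Rrm2 (49.2 ± 3.43) and Paics (47.1 ± 0.736) followed, and neighbours in this order among the 3 differed by less than the SD of Rrm2. The lowest levels were those of Pfas (4.05 ± 0.467), Ppat (4.80 ± 0.208) and Dhodh (4.9 ± 1.13). The median level per kilobase was 52.2 in salvage, 32.1 in deoxynucleotide production, 18.0 in purine synthesis, 10.9 in the folate arm, 7.15 in pyrimidine synthesis and 7.10 in PRPP supply with the kinases. Ppat and Cad, the entry enzymes of their pathways, were thus among the less abundant transcripts, Cad at 7.15 ± 0.744 CPM per kilobase. The longest transcript need not be the one these cells use, which bears on each level.

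**Figure D4:**
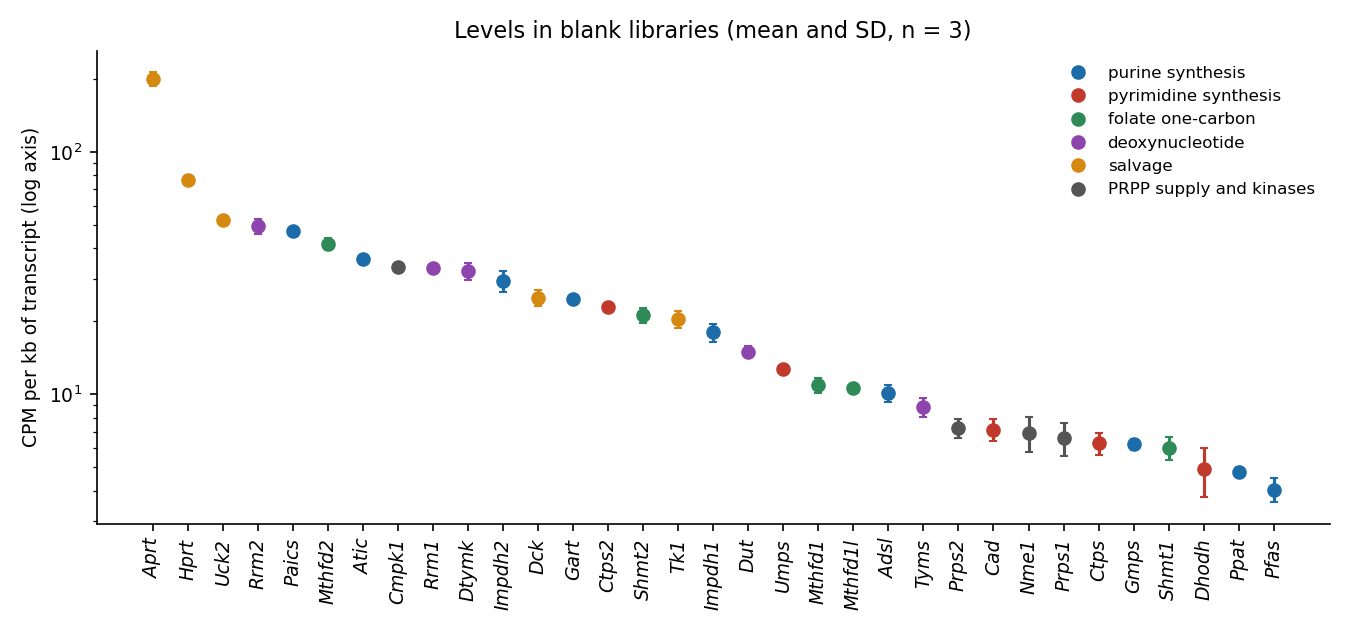
Mean level of each enzyme in the 3 blank libraries, in CPM per kilobase of its longest coding transcript on a log axis, with the SD as bars and the arm as colour. The salvage enzymes Aprt and Hprt lie highest at 200 and 76.6, and Pfas lies lowest at 4.05.

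Several steps are served by a pair of genes. The share of each pair's length-scaled level compares the forms, as far as reads could be assigned to a single gene. Ctps made up 21.4 ± 1.15% (SD, n = 3) of the Ctps and Ctps2 pair without mtDNA and 16.3 ± 3.36% with it. Tk1 made up 62.1 ± 2.80% of its pair with Tk2, the mitochondrial thymidine kinase, in blank and 54.6 ± 3.42% in mtDNA libraries. Uck2 made up 81.5 ± 0.845% and 76.9 ± 1.45% of its pair with Uck1, whose windows occur to 18.1% in Gm4482. In these 3 pairs every mtDNA share lay below every blank share. Tk2 and Uck1 themselves had log2 differences of -0.09 and -0.02 and did not pass the test (edgeR adjusted p = 0.638 and 0.94).

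Shmt1 made up 22.0 ± 2.45% of the Shmt1 and Shmt2 pair in blank and 16.2 ± 4.32% in mtDNA libraries, with mtDNA 3 at 20.3% inside the blank range. Rrm2 made up 93.7 ± 0.824% of its pair with Rrm2b, the reductase subunit known from non-dividing cells, in blank and 92.0 ± 0.286% in mtDNA libraries. Here too every mtDNA share (91.8 to 92.3%) lay below every blank share (92.8 to 94.5%). Rrm2b itself had a log2 difference of 0.04 (edgeR adjusted p = 0.889). The shares of Mthfd1 against Mthfd1l (50.5 ± 1.71% and 50.3 ± 0.751%) overlapped between the groups. So did those of Prps1 against Prps2 (47.5 ± 5.19% and 48.5 ± 1.86%). The groups also overlapped for Impdh1 against Impdh2 (38.2 ± 3.54% and 42.2 ± 5.17%). Of the windows of Impdh2, 69.3% also occur in Impdh2-ps. Where such reads were dropped, Impdh2 was counted too low and the Impdh1 share came out too high. The gene Nme2, partner of Nme1, had too few reads to be tested, at 0 to 0.998 CPM in blank and 1.05 to 1.71 CPM in mtDNA libraries, and 53.3% of its windows occur in Gm20390.

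Around these enzymes, 148 other genes of nucleotide metabolism, its regulators and proliferation were listed, and 133 of them were tested. Of the 133, 35 fell and 13 rose, where 5.98% of all tested genes fell and 11.9% rose, shares that also stand behind the counts of each list below. Without mtDNA 1, 18 fell, and without blank 3, 21 fell, where 3.82% and 3.59% of all tested genes fell. With DESeq2, 1.94% of all tested genes fell, and with 1 library left out 3.59% to 4.58% did. Those shares stand behind the list counts below that use these settings. In the 19 other tested genes of folate, serine and methyl metabolism, 3 fell and 1 rose, with a median log2 difference of -0.21. Aldh1l1, which oxidises formyl-tetrahydrofolate, rose from 6.59 ± 0.80 to 11.4 ± 0.959 CPM (SD, n = 3, edgeR adjusted p = 0.00473). Mat2a, which makes S-adenosylmethionine (log2 -0.30, edgeR adjusted p = 0.00161), Sfxn1, a mitochondrial serine carrier (log2 -0.33, adjusted p = 0.0128), and Gcsh of the glycine cleavage system (log2 -0.44, adjusted p = 0.0335) fell. Sfxn1 and Gcsh lost their calls under some alternatives (largest adjusted p 0.0747 and 0.19), both with DESeq2, Sfxn1 without blank 1 or mtDNA 3, and Gcsh without blank 2, blank 3, mtDNA 1 or mtDNA 3.

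Among 16 other purine genes, Ampd2, an AMP deaminase, was the only one that fell and none rose (log2 -0.24, edgeR adjusted p = 0.0448), and that call ended under 8 of the 16 alternatives, among them DESeq2, limma and each analysis that left out a library other than blank 1. Among 7 other pyrimidine genes, Cmpk2, a mitochondrial nucleotide kinase known as interferon-inducible, rose and none fell. It stood at 11.7, 3.99 and 5.95 CPM in blank and 264, 222 and 222 CPM in mtDNA libraries, a log2 difference of 5.05 (SE 0.15, edgeR adjusted p = 2.67e-16). Its cytosolic counterpart among the 33, Cmpk1, had a log2 difference of 0.09.

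Of 18 tested genes of nucleotide breakdown, 6 rose, none fell, and the median log2 difference was 0.03. Genes of this list were called lower with other settings: 3 with upper-quartile scaling, 4 with library totals alone, 2 with GC correction and 1 without mtDNA 2. Samhd1, which cleaves deoxynucleoside triphosphates, stood at 577, 507 and 548 CPM in blank and 1180, 1060 and 1100 CPM in mtDNA libraries (log2 1.03, SE 0.0541, edgeR adjusted p = 1.38e-12). Pnp, which splits purine nucleosides, rose from 92.3 ± 6.45 to 288 ± 33.3 CPM, a log2 difference of 1.64 (edgeR adjusted p = 1.77e-13), with 23.6% of its windows shared with other genes. Nt5c3, a nucleotidase for pyrimidine monophosphates, rose from 24.7 ± 1.4 to 93.4 ± 14.0 CPM (SD, n = 3, log2 1.91, edgeR adjusted p = 3.9e-12). In these 3 genes every mtDNA library lay above every blank library. The other 3, named after their values were seen, were Xdh (log2 0.62), Entpd1 (0.41) and Upp1 (0.34), and all 6 kept their calls under the 16 alternatives.

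Of 7 transport genes, Slc29a1, the main equilibrative nucleoside carrier of the plasma membrane, fell (58.9 ± 5.51 to 45.4 ± 1.24 CPM, SD, n = 3, edgeR adjusted p = 0.00336). Slc29a3, an intracellular carrier of the same family, rose (119 ± 6.43 to 174 ± 1.37 CPM, edgeR adjusted p = 3.16e-07), and so did Slc28a2, a concentrative carrier (6.76 ± 2.10 to 11.5 ± 1.63 CPM, edgeR adjusted p = 0.0134). The call of Slc28a2 ended with DESeq2 and without blank 2, blank 3 or mtDNA 1 (largest adjusted p 0.0888), and 27.7% of its windows occur in Gm14085. None of the 7 pentose phosphate genes, which feed ribose to PRPP, passed the test, and their median log2 difference was -0.01; 3 were called lower with upper-quartile scaling and 4 with library totals alone.

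Among 11 regulators of these genes, 2 fell and 3 rose. Myc did not pass the test, at 34.3, 36.7 and 40.0 CPM in blank and 38.7, 36.5 and 32.7 CPM in mtDNA libraries (log2 -0.04, edgeR adjusted p = 0.815), with overlapping groups. Mxd1, which competes with Myc for its partner Max, rose from 132 ± 10.4 to 288 ± 21.1 CPM (SD, n = 3, log2 1.13, edgeR adjusted p = 1e-11). Max itself rose (log2 0.49, edgeR adjusted p = 1.42e-05), and so did Mxi1, another competitor (log2 0.23, edgeR adjusted p = 0.022). Atf4, known to act on Mthfd2 and other serine and folate genes, had a log2 difference of 0.12 (edgeR adjusted p = 0.173). The cell cycle factors E2f1 (log2 -0.29, edgeR adjusted p = 0.0384) and E2f2 (log2 -0.21, edgeR adjusted p = 0.0228) fell. The call of Mxi1 depended on the scaling: it ended with upper-quartile scaling, library totals alone, GC correction and DESeq2, and without blank 1, blank 3, mtDNA 2 or mtDNA 3 (largest adjusted p over the 16 alternatives 0.247). That of E2f1 ended in each analysis that left out a library, without the filter on low counts, with GC correction and with DESeq2 (largest 0.214), and that of E2f2 with DESeq2 and without blank 2, blank 3, mtDNA 1 or mtDNA 2 (largest 0.126). The part of any of these factors in the values of the 33 enzymes was not tested.

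Of 29 tested genes of S phase and mitosis, 14 fell and none rose, where 5.98% of all tested genes fell. Their median log2 difference was -0.28, and their summed level was 2310 to 2340 CPM in blank and 1840 to 2060 CPM in mtDNA libraries. The helicase subunits Mcm3 (log2 -0.36, edgeR adjusted p = 0.000372), Mcm5 (log2 -0.33, adjusted p = 0.00065) and Mcm2 (log2 -0.37, adjusted p = 0.00185) fell. Pcna, the replication clamp, did not pass the test at 181 to 189 CPM in blank and 190 to 194 CPM in mtDNA libraries (edgeR adjusted p = 0.672). Of its windows, 23.7% occur in Pcna-ps2. Mki67, the proliferation marker, had a log2 difference of -0.36 (edgeR adjusted p = 0.0366) with overlapping groups, 305 to 398 CPM against 228 to 368 CPM, and its call ended with DESeq2, with robust dispersion and without blank 1, blank 3, mtDNA 1 or mtDNA 2 (largest adjusted p 0.454). Top2a fell (log2 -0.21, edgeR adjusted p = 0.0272), and this was lost with DESeq2 and without blank 2, blank 3 or mtDNA 1 (largest adjusted p 0.134). Of the 14 calls, 7 remained with DESeq2, 7 without mtDNA 1, 10 without blank 2 and 10 without blank 3.

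Of 19 tested genes of ribosome biogenesis, another group that dividing cells carry at high level, 14 fell and none rose, with a median log2 difference of -0.34. Nolc1 fell from 67.7 ± 2.37 to 43.6 ± 2.98 CPM (SD, n = 3, edgeR adjusted p = 3.5e-06), Nop2 from 47.0 ± 1.04 to 34.1 ± 3.60 CPM (edgeR adjusted p = 0.00136) and Nhp2 from 74.5 ± 1.67 to 59.0 ± 3.87 CPM (edgeR adjusted p = 0.00227). Of the 14 calls, 5 remained with DESeq2, 7 without blank 1 and 7 without blank 3, with 8 without mtDNA 1 and 8 without mtDNA 3. Where no gene of an arm or list passed edgeR's test in a direction, DESeq2 called none either, and limma called 1, a pentose phosphate gene that was higher. At an unadjusted p under 0.05 those directions held 1 PRPP gene that was lower, 2 breakdown genes that were lower, 2 pentose phosphate genes that were lower and 2 that were higher, and none in the other arms and lists.

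**Figure D5:**
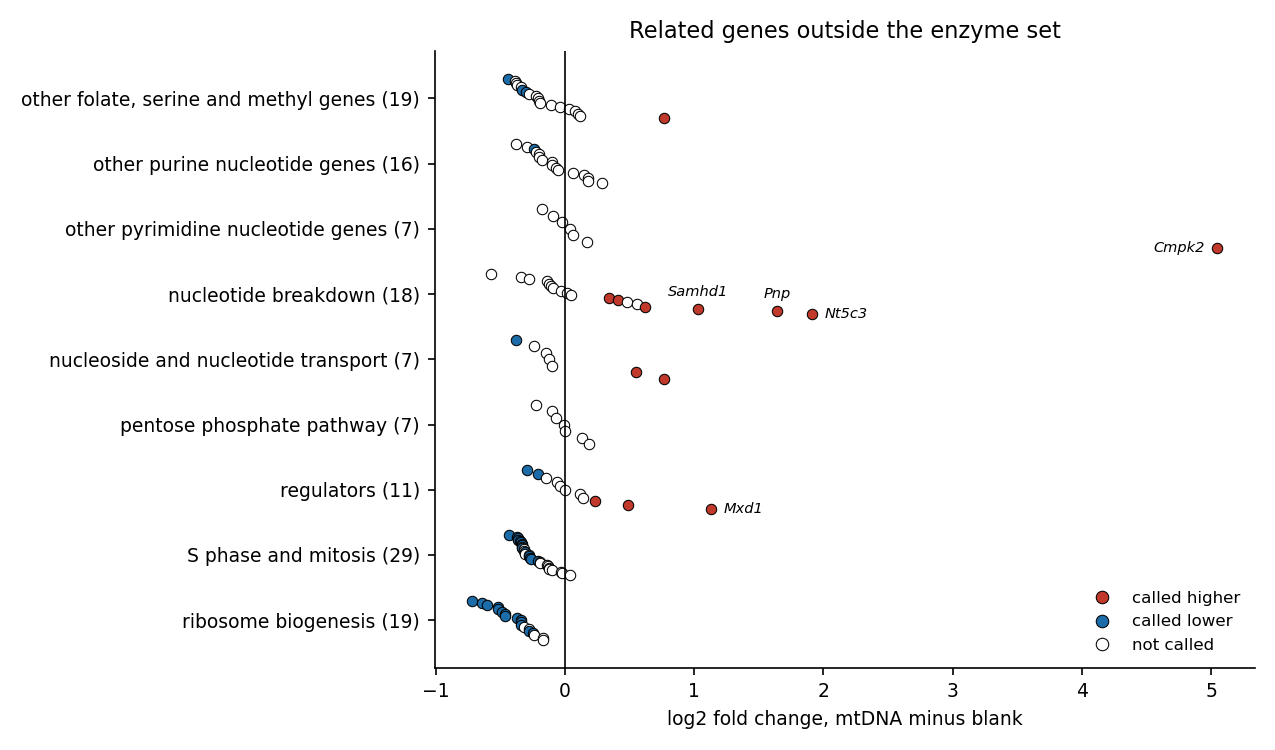
Log2 difference, mtDNA minus blank, of the 133 tested related genes by list, with the number tested in parentheses and the call as colour. The S phase and ribosome biogenesis genes lie almost wholly left of 0, while Cmpk2 (5.05), Nt5c3 (1.91), Pnp (1.64), Mxd1 (1.13) and Samhd1 (1.03) lie far to the right.

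Among markers of other cells, those of monocytes and macrophages differed most often. Of 9 monocyte and macrophage markers 6 rose, where 11.9% of all tested genes rose. The sum of the 9 went from 3540 to 3670 CPM in blank to 4520 to 4810 CPM in mtDNA libraries. The largest rises in CPM among the 9 were those of Ly6c2 and Fcgr1. Fcgr1 alone went from 45.7 to 69.4 CPM to 301 to 374 CPM. Ly6c2, with 21.9% of its windows shared with Ly6c1, went from a mean of 536 to 965 CPM. Mertk had a log2 difference of 1.07, while those of Csf1r, Cd68 and Ccr2 were 0.12, 0.18 and 0.16. Of 14 neutrophil markers Ngp alone passed the test, with a log2 difference of 0.17 (edgeR adjusted p = 0.0182) and sums of 7930 to 8340 and 8260 to 8890 CPM. The 4 progenitor markers summed to 55.7 to 61.9 CPM in blank and 45.6 to 47.0 CPM in mtDNA libraries, with Kit fallen (log2 -0.43, edgeR adjusted p = 0.00754). Dendritic cell markers summed to 442 to 447 and 449 to 453 CPM, those of eosinophils, basophils and mast cells to 159 to 175 and 187 to 201 CPM, stromal markers to 37.5 to 46.0 and 41.0 to 42.6 CPM and erythroid markers to 0.952 to 2.20 and 0.509 to 2.11 CPM. The part of the proliferation, progenitor and monocyte genes in the values of the 33 enzymes was not tested.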

How the data were processed

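Per the labels' protocols, 6 directional libraries of poly(A) RNA were read from 1 end for 75 bases. The authors deposited raw gene counts, with STAR 2.7.10a, FastQC, DESeq2 and GRCm39 named in the submitters' processing notes. Annotation release and strand setting: not given in the sources used here. Samples were grouped by the treatment label; replicate numbers only name libraries. The 33 members and all gene lists were chosen with earlier results of these data known.

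Symbols, transcript lengths and shared 75-base windows came from GENCODE M21 on GRCm38 (52083 of 55359 IDs named), and promoters from RefSeq on GRCm38.p6. Counts were filtered with filterByExpr, scaled by TMM and tested with edgeR 4.0.16 in R 4.3.3. CPM are counts over the library total times its TMM factor. Genes named are the 33, up to 3 lower and 3 higher per list by smallest p, and markers and partners listed by name; some items are not reported here. The script was tested on simulated data. Alternatives changed scaling, filter, tool (DESeq2 1.42.0, limma 3.58.1), dispersion, GC correction, a block, and left out each library.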

Additional observations from a re-analysis of the deposited data

How the results depend on the processing

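The 2 enzymes that rose, Dck and Mthfd2, did so under all 16 alternatives, and no enzyme with a call changed direction. The 13 that fell became 23 with library totals alone, 7 with DESeq2 and 7 to 12 when 1 library was left out, with 7 without blank 2. The median log2 difference of all 33 enzymes, -0.26, became -0.34 with upper-quartile scaling and -0.38 with library totals alone, where the medians of all tested genes were -0.09 and -0.13; it was -0.30 to -0.22 with 1 library left out. The 35 related genes that fell became 56 with upper-quartile scaling, 61 with library totals alone, 14 with DESeq2 and 18 to 30 with 1 library left out (18 without mtDNA 1, 21 without blank 3); the 13 that rose ranged from 11 to 14. Of all tested genes, DESeq2 called 217 lower and 967 higher, against 669 and 1327. With 1 library left out, 410 to 522 of all tested genes were lower (3.59% to 4.58%) and 1097 to 1191 higher. With library totals alone 2356 were lower and 861 higher, and with upper-quartile scaling 1504 and 970.

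The labels do not pair the libraries. With neighbouring title numbers taken as a replicate block, 13 enzymes fell; the deviations of such neighbours correlated at 0.0403 to 0.0448. The depth leaves the least abundant enzymes, with 238 reads over the 6 libraries at the low end and 5799 at the high end, with the widest errors.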
